A study of Mus musculus with 6 samples.

Results

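Expression of 10 immediate early genes (Fos, Fosb, Jun, Junb, Jund, Egr1, Egr2, Ier2, Ier3 and Nr4a1) was examined in isolated mouse pancreatic islets after exposure to CMPF or to vehicle. The genes were taken by symbol from the annotation of the array platform. All 10 were found, among 18193 genes with a named probe set of their own. Islets are the clusters of hormone-secreting cells of the pancreas. They came from male CD1 mice, an outbred stock, at 8 weeks of age, and rested overnight in culture before treatment. The CMPF group (3 arrays) received 200 uM CMPF for 24 hours, and the vehicle group (3 arrays) received 0.1% ethanol for the same time. CMPF is a furan fatty acid metabolite that circulates in blood. The labels do not say how many animals each sample pooled, or whether the numbered samples were separate preparations.

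Immediate early genes are switched on within minutes of a stimulus, without new protein synthesis, and their messages and proteins are short-lived. FOS and JUN family proteins pair through leucine zippers to form the AP-1 transcription factors, EGR proteins bind GC-rich sites through zinc fingers, and NR4A1 is an orphan nuclear receptor. In beta cells the family responds to glucose, depolarisation, cAMP and growth factors, and islet isolation and culture stress also induce it.

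The arrays were Affymetrix 3' expression arrays, on which Jun, Jund and Egr2 had 2 probe sets each and the others 1, and values are the authors' log2 RMA signals. Where a gene had several probe sets, the brightest on average is its main value. Signals of different probe sets are not comparable as abundances, so each gene is compared only with itself. A rank of mean signal among all genes is given only to show how bright a probe set was. The median signal of all probe sets lay between 5.08 and 5.15 on the 6 arrays. The islet hormone gene Ins2, insulin, read between 14.68 and 14.70 on the CMPF arrays and between 14.61 and 14.73 on the vehicle arrays, near the top of the scale. Same-numbered CMPF and vehicle arrays deviated together across genes, so the pair of arrays with 1 number is called a pair below. In bulk islets, fewer cells of a type and less RNA per cell cannot be told apart.

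No immediate early gene passed the test of CMPF against vehicle at 24 hours. No earlier time was sampled, so a change that had passed by then was not measured. Limma called 0 of the 10, against 0% of all genes at an adjusted p under 0.05, and every member had an adjusted p = 0.99995. At an unadjusted p under 0.05 limma also called 0 of the 10, against 1.13% of all genes. With the replicate number as a block it again called 0, at the adjusted threshold (0% of all genes) and at the unadjusted one (3.8% of all genes). The CMPF and vehicle arrays overlapped for all 10 members, where 4.52% of all genes had no overlap. SEs and intervals below come from the fit without the block unless the block is named. The median SE of the members was 0.182 without the block and 0.107 with it. Differences, CMPF minus vehicle throughout, were positive for 5 members and negative for 5, and ran from -0.11 to 0.19 log2 units. The median difference was -0.0078, beside 0.0018 for all genes, and was above 0 after a repeated quantile normalization (0.0149) and with array weights (0.046).

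**Figure D1:**
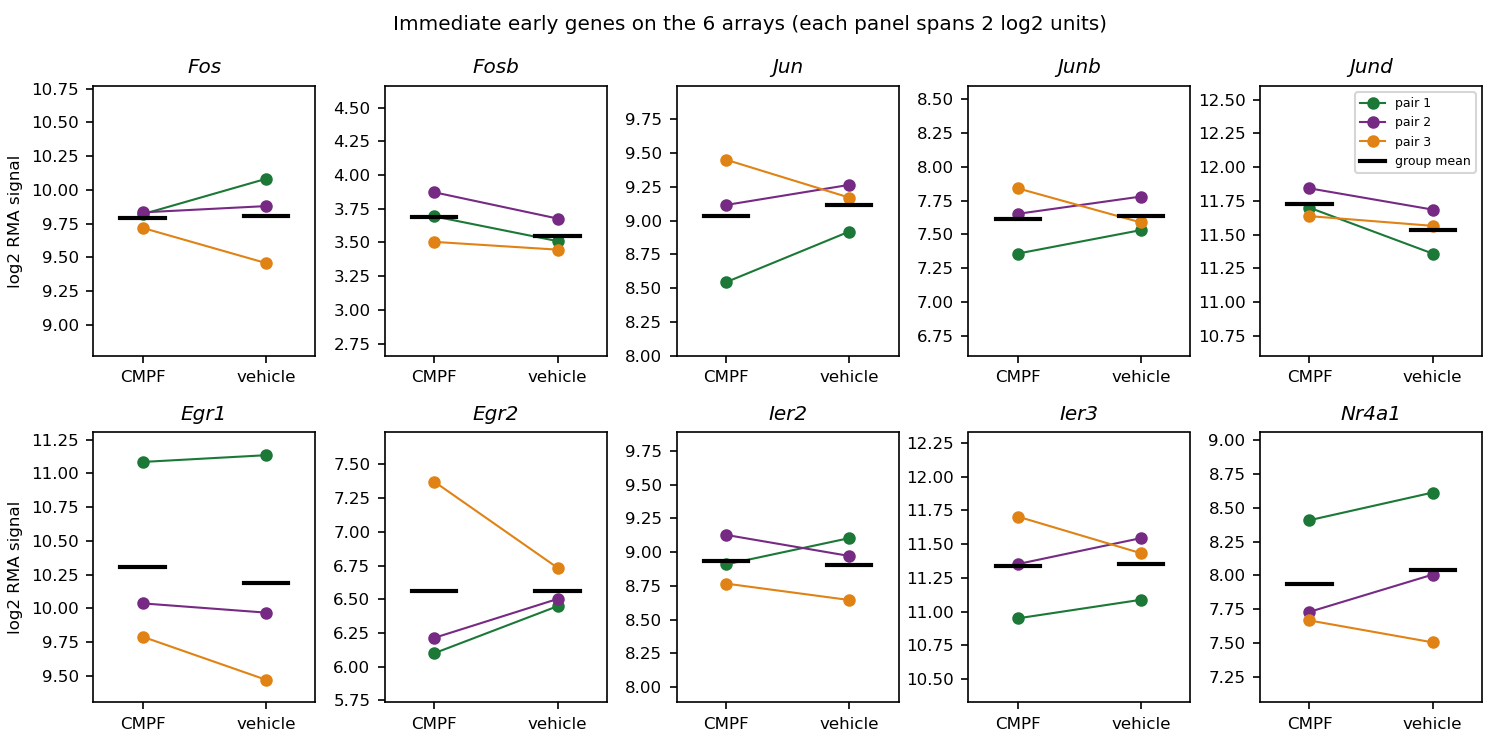
Log2 RMA signal of each immediate early gene on the 6 arrays, with CMPF left of vehicle, lines joining arrays of 1 pair and black bars at group means; every panel spans 2 log2 units. Egr1 and Nr4a1 separate by pair and not by treatment, and the pairs slope in different directions for 8 of the 10 genes.

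Among the FOS genes, Fos read 9.82, 9.83 and 9.72 on the CMPF arrays and 10.08, 9.88 and 9.46 on the vehicle arrays. The CMPF arrays lay close together, inside the wider span of the vehicle arrays. The difference was -0.02 (limma SE 0.158, 95% interval -0.39 to 0.35). Fosb encodes a FOS paralogue best known from sustained stimulation of neurons. It read 3.69, 3.87 and 3.50 with CMPF and 3.51, 3.68 and 3.45 with vehicle, a difference of 0.15 (SE 0.121). Its probe set was among the dimmest on the array, at the 13.1 percentile of genes, and without detection calls this signal cannot be told from background. Fosb lay higher with CMPF in all 3 pairs, by 0.18, 0.19 and 0.06.

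Jun, Junb and Jund encode the AP-1 partners of FOS proteins. Jun, the most transcriptionally active of the 3 proteins, read 8.54, 9.12 and 9.45 with CMPF and 8.92, 9.27 and 9.17 with vehicle. The CMPF arrays held both the lowest and the highest value, and the SD was 0.459 with CMPF and 0.179 with vehicle (n = 3 each). The difference was -0.08 (SE 0.224, 95% interval -0.61 to 0.44). Its other probe set gave a difference of -0.04, with pair differences of the same signs as the main one. Junb, which can restrain JUN activity, followed the same order of CMPF arrays, at 7.36, 7.65 and 7.84 with CMPF and 7.53, 7.78 and 7.59 with vehicle. Its difference was -0.02 (SE 0.141).

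Jund is expressed more steadily than its paralogues in many cells and is less of a classical immediate early gene. It had the largest positive difference of the 10, at 0.19 (SE 0.113, 95% interval -0.08 to 0.46), or 1.14-fold. It read 11.70, 11.84 and 11.64 with CMPF and 11.36, 11.69 and 11.57 with vehicle, so the lowest CMPF value lay below the highest vehicle value. Jund was higher with CMPF in all 3 pairs, by 0.34, 0.16 and 0.07, and with the block its SE was 0.0865 (limma unadjusted p = 0.0693, adjusted p = 0.979). Its other probe set was dim, at a mean of 3.599 with CMPF and 3.542 with vehicle, and lay lower with CMPF in pair 3 (-0.29). Fosb and Jund were the 2 members higher in all 3 pairs, against 11.8% of all genes, and 0 members were lower in all 3, against 11.1% of all genes.

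Egr1 had the largest pooled SD within groups of the 10, although Egr2 had a slightly larger SD on the CMPF arrays alone. Its protein is a zinc finger factor that follows depolarisation and growth factor signals in beta cells. It read 11.08, 10.04 and 9.79 with CMPF and 11.13, 9.97 and 9.47 with vehicle. Both arrays of pair 1 stood more than 1 log2 unit above all others, with either treatment. The group means were 10.30 ± 0.69 with CMPF and 10.19 ± 0.85 with vehicle (SD, n = 3 each), and the difference of 0.11 had a wide interval (SE 0.475, 95% interval -1.001 to 1.23). With the block, which removes offsets between pairs, the interval was -0.12 to 0.35.

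Egr2, a relative of Egr1 known for its part in myelination and in lymphocytes, read 6.10, 6.21 and 7.37 with CMPF and 6.45, 6.502 and 6.73 with vehicle. CMPF 3 stood apart from the other 5 arrays. The group means were 6.56 ± 0.70 with CMPF and 6.56 ± 0.15 with vehicle (SD, n = 3 each), so the difference was 0.00034 (SE 0.317, 95% interval -0.74 to 0.74) while the spread differed. The other Egr2 probe set read 5.05, 5.42 and 6.80 with CMPF and 5.82, 5.95 and 6.19 with vehicle, the same pattern with a difference of -0.23. Without CMPF 3 the main Egr2 difference was -0.40 and still uncalled (limma adjusted p = 0.978).

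Nr4a1, whose receptor is regulated through its own abundance, read 8.41, 7.73 and 7.67 with CMPF and 8.61, 8.01 and 7.50 with vehicle. As for Egr1, the arrays of pair 1 were the highest of each group. The difference of -0.11 was the largest negative one of the 10 (SE 0.305, 95% interval -0.82 to 0.61, with the block -0.37 to 0.15). Ier2, a small nuclear protein, read 8.91, 9.13 and 8.77 with CMPF and 9.10, 8.97 and 8.65 with vehicle, a difference of 0.03 (SE 0.148). Ier3 encodes a stress-induced protein that modulates survival signalling and is not a DNA-binding factor of the classical kind. It read 10.95, 11.35 and 11.70 with CMPF and 11.09, 11.55 and 11.43 with vehicle, a difference of -0.02 (SE 0.205).

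**Figure D2:**
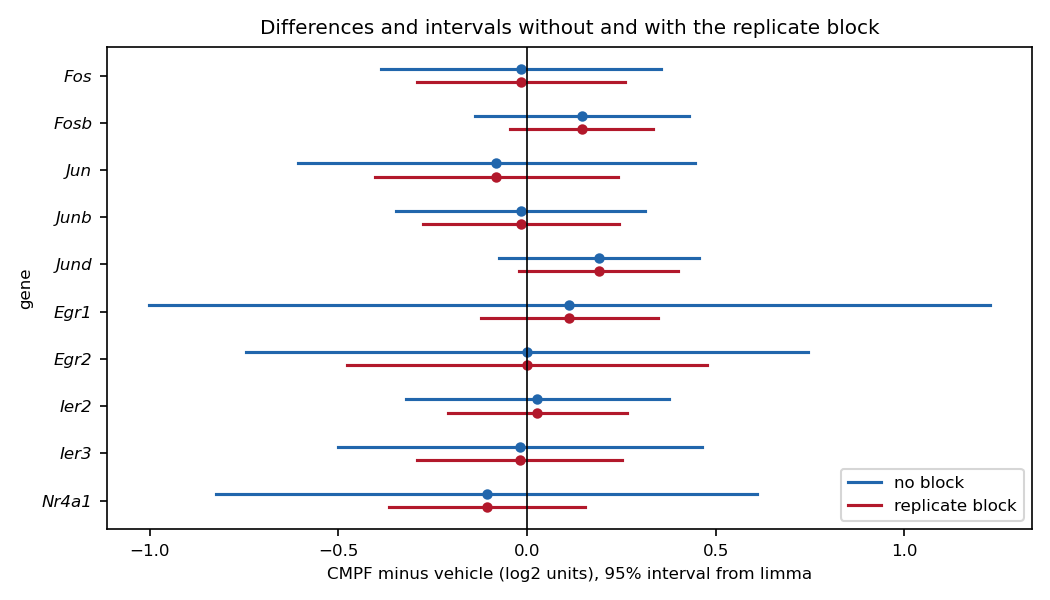
CMPF minus vehicle difference of each gene in log2 units (points) with limma's 95% interval (lines), without the replicate block in blue and with it in red. All 20 intervals include 0, and that of Egr1 narrows most, to -0.12 to 0.35 with the block.

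Egr1 and Nr4a1 differed between pairs. For all 10 members the range of the 3 pair means exceeded the size of the CMPF minus vehicle difference, as it did for 87.5% of all genes. The pair means of Egr1 were 11.11, 10.002 and 9.63, a span of 1.48 log2 units or 2.79-fold, and those of Nr4a1 were 8.51, 7.87 and 7.59, a span of 0.93 or 1.90-fold. In limma's moderated F test of the replicate number, adjusted over all genes, Egr1 (adjusted p = 0.0114) and Nr4a1 (adjusted p = 0.0430) passed, 2 of 10 members against 2.64% of all genes. At an unadjusted p under 0.05 the F test took 5 of 10 members, against 21.8% of all genes. This test was added after the values were seen. With single arrays left out, the Egr1 call was lost without CMPF 2 (adjusted p = 0.0733) or vehicle 2 (adjusted p = 0.0790). The Nr4a1 call was lost without CMPF 1 (adjusted p = 0.137), CMPF 2 (adjusted p = 0.132), vehicle 1 (adjusted p = 0.127) or vehicle 2 (adjusted p = 0.130). Without pair 1, Egr1 had an adjusted p = 0.181 and Nr4a1 an adjusted p = 0.341, and 0 members passed while 423 genes did. Without pair 2 they had an adjusted p = 0.104 and 0.119, and 0 genes passed. The pooled SD within groups was 0.272 at the median of the members and 0.145 at the median of all genes, and it was above the median of all genes (50% of genes) for 9 of the 10, Jund being the exception. With pairs removed as a block, the median residual SD was 0.166 for the members and 0.101 for all genes.

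The pairs did not order the members in 1 way. Fos, Egr1 and Nr4a1 had their highest pair mean in pair 1 and their lowest in pair 3. Jun, Egr2 and Ier3 had the opposite order, with the highest mean in pair 3 and the lowest in pair 1. Fosb and Ier2 were highest in pair 2 and lowest in pair 3, and Junb and Jund highest in pair 2 and lowest in pair 1. Vehicle 3 held the lowest of the 6 values for 5 members and CMPF 1 for 4, while CMPF 3 held the highest for 4.

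Promoter sequences of 4 members are shown because they come from both opposed groups, Fos and Nr4a1 from the genes highest in pair 1, Jun and Egr2 from those highest in pair 3. Of these, only Nr4a1 passed limma's F test of the replicate number (adjusted p = 0.298 for Fos, 0.170 for Jun and 0.189 for Egr2). RefSeq windows on GRCm38.p6 run from 250 bases before to 50 after an annotated start. Windows of 8 of the 10 members were searched, and those of 4 are printed here. They are Fos on the plus strand of chr12:85473640-85473939, Nr4a1 on the plus strand of chr15:101266596-101266895, Jun on the minus strand of chr4:95052173-95052472 and Egr2 on the plus strand of chr10:67537619-67537918, 1 of 5 windows listed for Egr2. Capitals mark matches, on either strand, to TGACG (the core of the cAMP response element), TGACNTCA (of the CRE and JUN-binding type, which overlaps TGACG where N is G), TATAAA, GCGGGGGCG (an EGR site), TGAGTCA (the AP-1 site) and the CArG box bound by serum response factor.
Fos: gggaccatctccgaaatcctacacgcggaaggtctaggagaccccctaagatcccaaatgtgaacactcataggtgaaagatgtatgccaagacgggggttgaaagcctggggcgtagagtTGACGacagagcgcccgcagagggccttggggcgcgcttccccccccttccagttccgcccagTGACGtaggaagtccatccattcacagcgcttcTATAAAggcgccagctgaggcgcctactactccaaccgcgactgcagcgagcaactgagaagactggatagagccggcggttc
Nr4a1: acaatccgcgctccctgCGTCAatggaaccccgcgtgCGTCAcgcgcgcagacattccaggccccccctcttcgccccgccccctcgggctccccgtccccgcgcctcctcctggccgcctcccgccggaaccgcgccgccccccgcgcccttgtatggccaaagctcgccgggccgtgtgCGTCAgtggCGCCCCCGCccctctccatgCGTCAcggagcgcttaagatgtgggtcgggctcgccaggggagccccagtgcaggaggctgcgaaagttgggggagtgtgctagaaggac
Jun: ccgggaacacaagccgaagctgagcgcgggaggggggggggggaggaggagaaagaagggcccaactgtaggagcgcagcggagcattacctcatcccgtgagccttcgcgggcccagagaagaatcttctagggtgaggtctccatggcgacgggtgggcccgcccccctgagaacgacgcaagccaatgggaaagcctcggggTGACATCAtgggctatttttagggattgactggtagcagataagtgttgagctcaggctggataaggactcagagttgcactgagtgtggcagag
Egr2: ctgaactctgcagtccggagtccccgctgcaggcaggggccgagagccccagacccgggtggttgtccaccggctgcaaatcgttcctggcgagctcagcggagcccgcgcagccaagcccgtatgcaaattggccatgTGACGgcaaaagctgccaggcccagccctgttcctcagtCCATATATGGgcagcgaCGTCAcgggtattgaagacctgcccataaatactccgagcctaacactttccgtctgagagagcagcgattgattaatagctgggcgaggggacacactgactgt

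In the Fos window, TGACG began 129 and 66 bases before the start and TATAAA 33 bases before it. The Nr4a1 window held TGACG 4 times, all on the opposite strand, and GCGGGGGCG once. The Jun window held TGACATCA, a match to TGACNTCA, 45 bases before the start and no TGACG. The printed Egr2 window held TGACG on both strands, around a CArG box that began 72 bases before the start. Among 32851 RefSeq windows of the same length, 20.8% held TGACG, 8.83% TGACNTCA, 13.6% TATAAA, 2.91% GCGGGGGCG, 5.20% TGAGTCA and 1.63% a CArG box. These matches describe the letters in a window, not binding.

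CMPF minus vehicle had opposite signs in different pairs. In pair 1, 8 of 10 members lay lower with CMPF, against 51% of all genes. Pair 2 had 6 of 10 lower, against 47.4% of all genes, and in pair 3 all 10 lay higher, against 49.2% of all genes. The same 8 genes (all but Fosb and Jund) were lower in pair 1 and higher in pair 3, against 28.2% of all genes. Median differences of the members were -0.18 in pair 1, -0.09 in pair 2 and 0.26 in pair 3, while those of all genes were -0.0051, 0.0101 and -0.0011. These counts held with median centring and with the repeated quantile normalization, and with probe set means 9 of 10 members were higher in pair 3, with Jund lower. Egr2 had the widest swing, at -0.35, -0.29 and 0.64, followed by Jun, at -0.38, -0.15 and 0.28. Fos gave -0.26, -0.05 and 0.26. With 1 array a treatment in each pair, the difference between pairs could not be tested, and the median over members was 0.11 without pair 1 and -0.15 without pair 3.

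**Figure D3:**
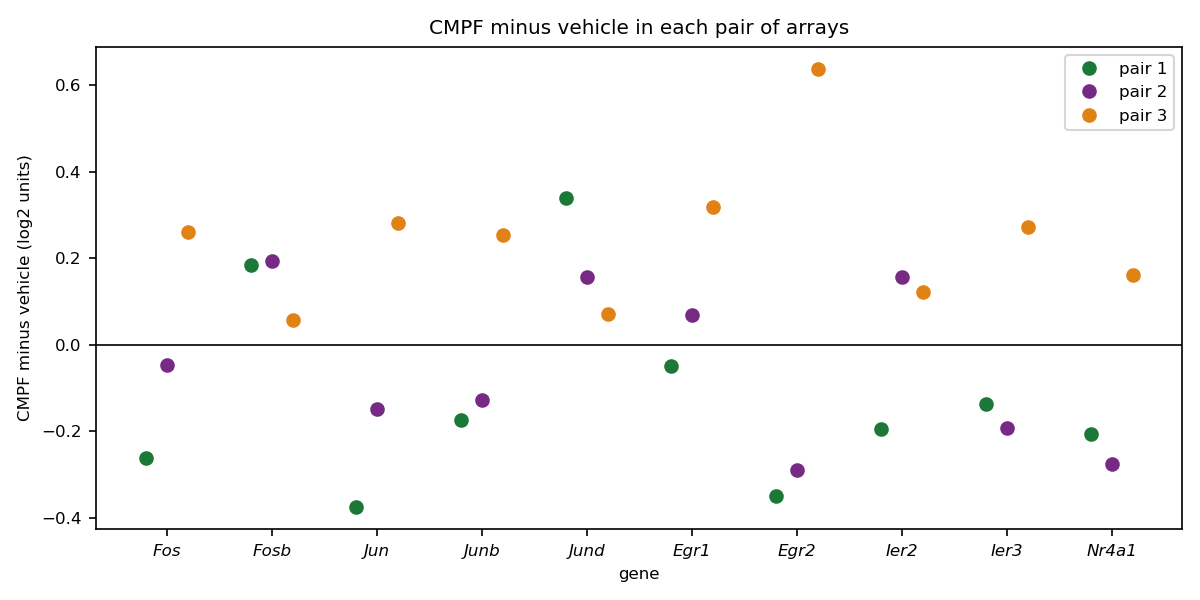
CMPF minus vehicle difference of each gene in log2 units in pair 1 (green), pair 2 (purple) and pair 3 (orange). All 10 orange points lie above 0, and 8 of the 10 green points lie below it.

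Other genes of the same response, with regulators and partners of it, were read from 5 lists, with 59 genes analysed here. Limma called 0 of the 59 in either direction (0% of all genes), and 1 reached an unadjusted p under 0.05, against 1.13% of all genes (with the block 4, against 3.8%). The 4 genes with the block were Batf, Klf2, Myc and Mrtfa (limma unadjusted p = 0.0446, 0.0248, 0.0248 and 0.0310, each with an adjusted p = 0.979). The 1 gene without the block was Batf, a bZIP partner of JUN proteins in lymphocytes. It read 6.14, 6.22 and 6.16 with CMPF and 6.03, 5.92 and 5.95 with vehicle, without overlap, a difference of 0.20 (SE 0.0816, limma unadjusted p = 0.0417, adjusted p = 0.99995). Its list of 9 other AP-1 and related bZIP genes had a median of -0.0067. Of the 9, 3 lay higher and 1 lower in all 3 pairs, against 11.8% and 11.1% of all genes. Batf3 differed by -0.17 (SE 0.149), Atf2 by -0.11 (SE 0.124) and Maff, a small MAF protein, by 0.09 (SE 0.180).

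The 6 other EGR and NR4A genes and EGR corepressors had a median of -0.09. Of the 6, 0 lay higher and 2 lower in all 3 pairs, against 11.8% and 11.1% of all genes. Nr4a2, a paralogue of Nr4a1, differed by -0.27 (SE 0.150), read 8.19, 8.64 and 8.55 with CMPF and 8.94, 8.69 and 8.56 with vehicle, and owed most of this to pair 1 (-0.74, against -0.05 and -0.0080 in pairs 2 and 3). Nab2, which represses EGR factors, lay lower in each of the pairs, with a difference of -0.23 (SE 0.146). Nr4a3 differed by -0.16 (SE 0.160). The Egr3 main probe set differed by 0.14 (SE 0.0907).

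Among 12 other induced transcription factors the median was -0.05. Of the 12, 2 lay higher and 0 lower in all 3 pairs, against 11.8% and 11.1% of all genes. Klf2, a flow-responsive factor of endothelium, read 6.45, 7.59 and 6.46 with CMPF and 6.22, 6.99 and 6.32 with vehicle, with pair 2 highest in each group. Its difference was 0.32 (SE 0.340, with the block 0.109). Myc, a growth regulator, differed by 0.23 (SE 0.119, with the block 0.0777), Csrnp1 by -0.20 (SE 0.116) and Nfil3, a bZIP repressor, by -0.13 (SE 0.157). The 20 feedback and effector genes had a median of -0.02. Of the 20, 1 lay higher and 0 lower in all 3 pairs, against the same shares of all genes. Ccn2, a matricellular growth factor, differed by -0.17 (SE 0.324), Dusp4, a MAP kinase phosphatase, by 0.16 (SE 0.211), Zfp36l1, an mRNA decay factor, by 0.14 (SE 0.411) and Gem, a small GTPase that restrains calcium channels, by -0.13 (SE 0.209).

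For upstream kinases and promoter-binding factors, 12 genes were analysed here. Their median was -0.04, with 3 higher and 2 lower in all 3 pairs, against 11.8% and 11.1% of all genes. Mrtfa, an actin-regulated cofactor of serum response factor, lay lower in each of the pairs, at a difference of -0.21 (SE 0.107, with the block 0.0747). Crem, a cAMP-responsive modulator, did so too, at -0.15 (SE 0.161). Mapk8, which encodes the JUN kinase JNK1, differed by 0.14 (SE 0.110), and Elk3, an ETS factor, by -0.12 (SE 0.206).

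The sign change between pairs appeared in related lists to different degrees. It was found for 8 of 12 other induced transcription factors (66.7%), 12 of 20 feedback and effector genes (60%), 5 of 12 upstream factors (41.7%), 2 of 6 other EGR and NR4A genes and corepressors (33.3%) and 2 of 9 other AP-1 and related bZIP genes (22.2%). Over the 59 genes it was found for 29 (49.2%), against 28.2% of all genes. Of the 6 other EGR and NR4A genes and corepressors, 4 lay lower with CMPF in pair 3. Elk3 (-0.42, -0.23 and 0.28), Gem (-0.44, -0.27 and 0.31) and Ccn2 (-0.52, -0.15 and 0.15) each followed it. Among 6 heat shock genes, 4 were lower in pair 1 and all 6 higher in pair 3. Hspa1a, an inducible chaperone, gave -0.54, -0.13 and 0.44, and its paralogue Hspa1b gave -0.50, -0.05 and 0.65. Hspb1, a small heat shock protein, was higher in all 3 pairs, at 0.39, 0.39 and 0.74, and Dnajb1, a cochaperone, gave -0.19, -0.16 and 0.08.

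**Figure D4:**
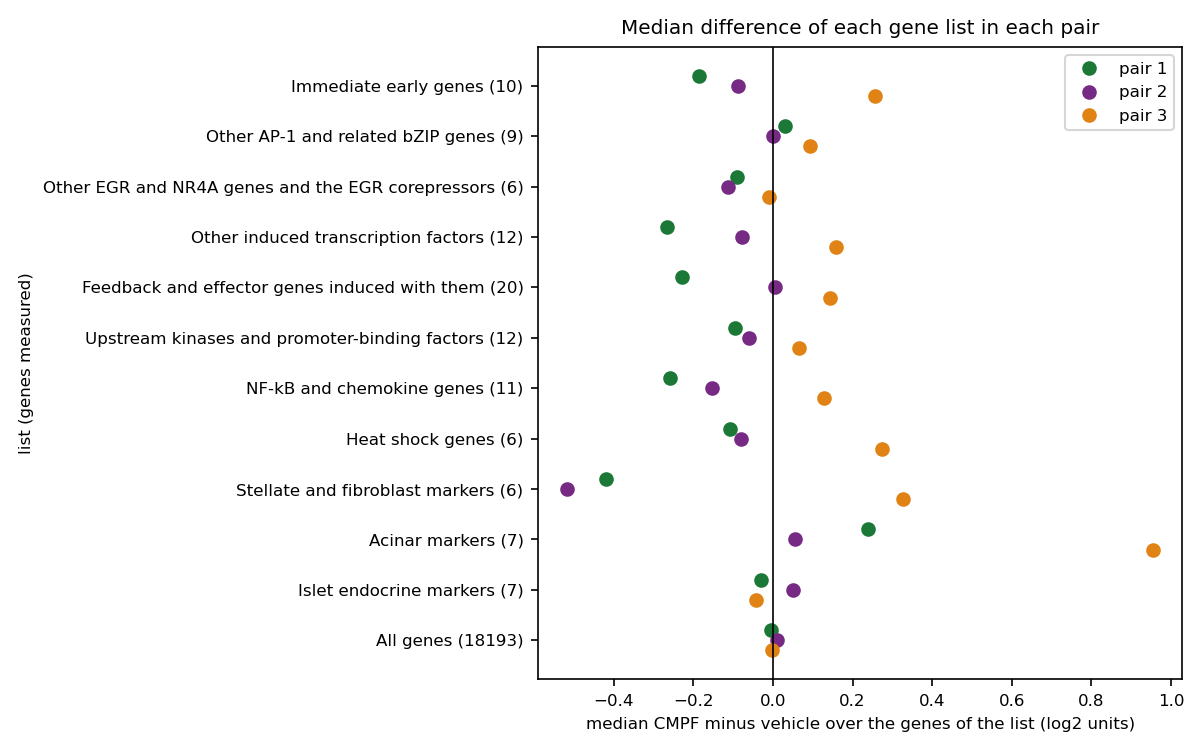
Median CMPF minus vehicle difference in log2 units over the genes of each list shown, with the number of genes measured in brackets. Pair 1 is green, pair 2 purple and pair 3 orange. The duct, endothelial, macrophage, neutrophil and Schwann marker lists are not drawn. The immediate early genes sit at -0.18, -0.09 and 0.26, and stellate and fibroblast markers at -0.42, -0.52 and 0.33.

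Among marker lists of other pancreatic cells, only in the stellate and fibroblast list did every gene have the signs of the 8 genes above in pairs 1 and 3. Medians in pairs 1 and 3 had these signs also for neutrophil (-0.21 and 0.74), macrophage (-0.013 and 0.051) and endothelial markers (-0.08 and 0.30). All 6 stellate and fibroblast markers (Col1a1, Col1a2, Col3a1, Dcn, Lum and Pdgfrb) were lower with CMPF in pair 1 and in pair 2 and higher in pair 3, and their mean log2 level ran from 8.89 to 10.16 on the CMPF arrays and from 9.41 to 9.84 on the vehicle arrays. The 7 measured acinar markers were higher in pairs 1 and 3 without exception, with medians of 0.24, 0.06 and 0.95 in the 3 pairs and mean levels from 12.31 to 13.33 on the CMPF arrays and from 11.42 to 13.24 on the vehicle arrays. Macrophage markers were lower for 5 of 6 genes in pair 1 and higher for 4 of 6 in pair 3, with mean levels from 7.12 to 7.46 with CMPF and from 7.24 to 7.39 with vehicle. Duct markers were higher for 3 of 5 genes in pair 1 and 4 of 5 in pair 3, with mean levels from 7.49 to 8.41 with CMPF and from 7.26 to 8.31 with vehicle. Endothelial markers were higher for 3 of 6 genes in pair 1 and for all 6 in pairs 2 and 3, with mean levels from 5.32 to 6.13 with CMPF and from 5.39 to 5.84 with vehicle. Islet endocrine markers were lower for 6 of 7 genes in pair 1 and 6 of 7 in pair 3. Neutrophil markers were lower for 3 of 3 genes in pair 1 and higher for 2 of 3 in pair 3. Of the 2 measured Schwann markers, 1 was higher and 1 lower in each of pairs 1 and 3. None of these markers was at 0, since RMA gives every probe set a value. The dimmest endothelial and duct markers, at the 9.1 and 8.6 percentiles of genes, lay below Fosb and cannot be told from background. Their part in the pattern of the immediate early genes was not tested.

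NF-kB and chemokine genes, which stress and cytokines induce beside the immediate early genes, had a median of -0.13. Limma called 0 of the 11 (0% of all genes). Of the 11, 0 lay higher and 2 lower in all 3 pairs, against 11.8% and 11.1% of all genes. Cxcl2, a neutrophil chemokine, read 4.79, 6.34 and 5.40 with CMPF and 8.85, 6.39 and 5.92 with vehicle, and vehicle 1 stood far above the other 5 arrays. Its difference was -1.55 (SE 0.756, limma adjusted p = 0.99995). On vehicle 1, Fos, Egr1 and Nr4a1 also had their highest values of the 6 arrays, but Jund had its lowest. Ccl2, a monocyte chemokine, read 6.97, 7.92 and 7.86 with CMPF and 8.04, 8.02 and 7.90 with vehicle, so CMPF 1 was the low array, as it was for Jun, Junb, Egr2 and Ier3. Icam1, an adhesion molecule, differed by -0.28 (SE 0.327) and the cytokine Il6 by 0.25 (SE 0.588). A measure of RNA integrity, the 3' minus 5' signal of the Actb control, was 0.841, 0.741 and 0.761 on the CMPF arrays and 0.829, 0.703 and 0.809 on the vehicle arrays, highest in pair 1 and lowest in pair 2 in both groups. That of the Gapdh control was 0.017, 0.017 and -0.016 on the CMPF arrays and -0.027, -0.089 and -0.045 on the vehicle arrays. The part of either in these values was not tested.

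The mean profile of the 10 members, each centred on its own mean, was -0.02, -0.0037 and 0.06 with CMPF and 0.10, 0.05 and -0.18 with vehicle. It spanned 0.28 log2 units, with vehicle 1 highest and vehicle 3 lowest. Among 8598 other genes of sufficient signal and spread, those most like it over the 6 arrays were Mettl6 (Pearson r = 0.981), Exosc2 (r = 0.976), Abhd17b (r = 0.949), Sde2 (r = 0.934) and Cblb (r = 0.928). These values only rank likeness over 6 paired arrays. The profile averages members with opposed orders of pairs, such as Egr1 and Jun, and Egr1 alone spanned 1.66 log2 units.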

How the data were processed

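RNA from 6 samples was measured on 1 array each. Per the submitters' processing notes, the authors made the deposited log2 values with RMA in Affymetrix Expression Console 1.1, with settings not given in the sources used here. RMA brings all arrays to 1 distribution and carries no detection call. Of 45101 probe sets, 34945 had 1 gene, 932 several and 9160 none, and 64 were controls; the platform table names no build. Of those with 1 gene, 34741 matched a RefSeq table (GRCm38.p6) by Entrez ID. Each of 18193 genes kept its brightest probe set.

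CMPF was compared with vehicle with limma 3.58.1 in R 4.3.3 (lmFit, eBayes, two-sided, Benjamini-Hochberg over all genes, threshold 0.05). The fit without the block was checked on simulated arrays without offsets between pairs, unlike these arrays, and the fit with the block on simulated arrays with such offsets. The number of arrays limits the precision. P-values set a difference against the residual spread between samples, which may be technical. With the block, that spread is what remains after offsets between pairs are removed. Deviations from group means correlated at 0.488 to 0.638 for same-numbered arrays and at -0.555 to 0.0885 otherwise, so the numbers were taken as pairs, from the data and not the labels. No 2 arrays were identical.

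The members and lists were chosen with earlier results of these data known. Text names all members, the 4 genes of each list with the largest difference, and the 5 genes outside the members (signal above the median gene, SD at least 0.5 times that of the profile) most correlated with their mean profile; genes outside this rule (Ins2, the fibroblast markers) were named for context. Not run were background corrections, which need scanner files.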

Additional observations from a re-analysis of the deposited data

How the results depend on the processing

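CMPF against vehicle gave 0 called genes, 0 of them immediate early genes, under the replicate block, median centring, a repeated quantile normalization, filters at the 25th percentile and the median level, probe set means, array weights, and without any 1 array or pair. The block changed no call. Signs were less stable. With array weights the differences were 0.035 for Jun, 0.057 for Junb, -0.14 for Egr1, -0.011 for Ier2 and 0.11 for Ier3. With the repeated quantile normalization they were 0.0077 for Fos, -0.0198 for Egr2 and 0.022 for Ier3, and Egr2 gave -0.0034 with median centring and -0.12 with probe set means. Leaving out 1 array or pair gave ranges of -0.19 to 0.12 for Fos, -0.29 to 0.17 for Jun, -0.15 to 0.11 for Junb, -0.28 to 0.58 for Egr1, -0.40 to 0.23 for Egr2, -0.10 to 0.14 for Ier2, -0.20 to 0.17 for Ier3 and -0.38 to 0.18 for Nr4a1, while Fosb (0.05 to 0.24) and Jund (0.10 to 0.26) kept their sign. The median difference ran from -0.15 to 0.13 over these settings. The median residual SD was 0.166 with the replicate block, and the median SD within groups was 0.185 to 0.365 with an array or pair left out. The F test of replicate numbers called 481 genes (2.64% of all genes), and 1147 with the filter at the median level. With an array or pair left out it called 0 to 936 of 18193 genes (0 without CMPF 2, vehicle 2 or pair 2). Members called then ranged from 0 to 5. Both the 5 members and the 936 genes were called without vehicle 3. The cause of these shifts was not tested.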
